A study of Mus musculus with 14 samples.

Results

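This account covers 8 genes of cholesterol metabolism in the uterus of pregnant mice: Hmgcs1, Fdps, Fdft1, Sqle, Lss, Cyp51 and Dhcr7, which encode enzymes of cholesterol synthesis, and Mylip, which encodes the ubiquitin ligase that marks the LDL receptor for degradation. Every probe set with one of these as its single symbol in the platform annotation was taken, 20 of the 45037 non-control probe sets on the array. The genes were chosen on log2 signals of these same arrays across the 4 groups, so their differences are given as a description and support nothing beyond it. Of the 20 probe sets, 13 had a mean log2 signal at or above the median of all probe sets, a signal of 134, and these covered all 8 genes. The other 7 were dim extra probe sets of Hmgcs1, Fdps, Fdft1, Lss and Cyp51, with mean signals between 10.04 and 122. Where a gene had several probe sets above the median, the one with the highest mean log2 signal stands for it.

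Whole uteri were taken at day 3.5 of gestation, before the embryo implants, from C57BL/6 females, and each of the 14 was measured on 1 array. Saline had been given to 4 wild-type and 3 Folr4-/- females, and folinic acid to 3 wild-type and 4 Folr4-/- females. Folinic acid, a reduced folate, was injected into the peritoneum at 12.5 mg/kg on 2 occasions, the first 10 days and the last 3 days ahead of mating. The gene, now named Izumo1r, is given in the labels only as absent from the mutants, without the design of the allele, and the age of the females is not given in the sources used here. The labels call the replicates biological, but titles of wild-type saline replicates 2 and 3 share a number, as do those of wild-type folinic acid replicates 1 and 2, with no meaning stated, so errors and p-values measure the spread between these samples.

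Signals are the authors' linear MAS5 values, 1 per probe set and array. The median signal of an array lay between 130.0 and 157, and the ratio of the actin control probe sets at the 3-prime and 5-prime ends, which is higher in degraded RNA, between 1.54 and 3.64. The uterine genes Pgr, Esr1 and Hoxa11 were all above the filter, with a summed signal of 20600 to 37930 per array. The probe set of the targeted gene was dim, at 13.5 to 72.4 on the 7 wild-type and 6.14 to 70.2 on the 7 mutant arrays, and lay below the filter, so it did not check the genotype labels. In whole tissue, fewer cells of a type and less RNA per cell cannot be told apart.

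As background, cholesterol is built from acetyl-CoA through the mevalonate pathway, whose products are joined to squalene and then closed and trimmed to the sterol ring. When sterols are scarce in the endoplasmic reticulum, the transcription factor SREBP-2 is released and switches on the genes of the enzymes and of the LDL receptor together, and when oxidised sterols are plentiful the nuclear receptor LXR switches on export genes and Mylip, which lowers uptake. In the uterus, cholesterol is needed for the membranes of dividing epithelial and stromal cells and is the starting point of steroid hormones, which at this stage come mainly from the ovary.

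Promoter sequences were matched for 5 of the 8 genes in RefSeq, on GRCm38.p6, with 7 start sites in all, and the 250 bases before each start were searched on both strands. The motifs were TCACNCCAC for the SREBP element, CACGTG for the E-box, CCAAT for the NF-Y box, GGGCGG for the GC box and the DR4 direct repeat that LXR can bind. Mylip and Dhcr7 are shown because their signals differed most with folinic acid, and Hmgcs1 as the gene among the 5 with a match to the SREBP element. The sequences run 5′ to 3′ on the gene's strand, with every motif match in capitals.
Mylip, chr13:45389492-45389741, plus strand: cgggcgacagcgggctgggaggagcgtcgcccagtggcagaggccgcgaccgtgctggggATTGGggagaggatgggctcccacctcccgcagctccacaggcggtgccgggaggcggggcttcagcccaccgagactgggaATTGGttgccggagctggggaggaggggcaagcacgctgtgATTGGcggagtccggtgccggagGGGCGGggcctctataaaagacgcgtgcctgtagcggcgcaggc
Dhcr7, chr7:143829964-143830213, plus strand: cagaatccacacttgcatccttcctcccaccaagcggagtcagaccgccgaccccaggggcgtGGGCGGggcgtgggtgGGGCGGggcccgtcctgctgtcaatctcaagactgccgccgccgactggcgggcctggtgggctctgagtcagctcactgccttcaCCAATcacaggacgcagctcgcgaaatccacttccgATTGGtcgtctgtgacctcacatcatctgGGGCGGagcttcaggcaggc
Hmgcs1, chr13:119690101-119690350, plus strand: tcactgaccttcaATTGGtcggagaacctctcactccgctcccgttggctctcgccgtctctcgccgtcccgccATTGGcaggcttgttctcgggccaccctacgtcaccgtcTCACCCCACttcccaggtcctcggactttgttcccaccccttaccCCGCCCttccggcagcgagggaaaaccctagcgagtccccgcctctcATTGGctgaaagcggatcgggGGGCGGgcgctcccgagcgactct

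The Hmgcs1 window held the SREBP element once, 137 to 129 bases before the start, where 1.05% of the 32851 windows of this length in the table held one. It also held 3 NF-Y boxes and 2 GC boxes. The Mylip window held 3 NF-Y boxes on the opposite strand and 1 GC box, and neither the SREBP element nor the direct repeat. Of the 3 Dhcr7 start sites, the one printed had the most matches, 2 NF-Y boxes and 3 GC boxes, and another had an E-box. Lss had 1 NF-Y box and 2 GC boxes and Cyp51 1 of each. NF-Y boxes were found in 33.8% of all windows, GC boxes in 32.7%, E-boxes in 6.02% and the direct repeat in 0.0152%, and no matches of different motifs overlapped. A match describes letters in the window and says nothing of binding in this tissue.

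Mylip was higher after folinic acid in both genotypes. Its signal in wild type with saline was 1564, 1492, 1915 and 1508 in replicates 1 to 4, and in wild type with folinic acid 2260, 1989 and 2355 in replicates 1 to 3. In mutants with saline it was 918, 1576 and 1469, and in mutants with folinic acid 3034, 2106, 2176 and 2938. All 7 folinic acid arrays thus lay above all 7 saline arrays, the highest saline value being wild-type replicate 3 and the lowest folinic acid value wild-type replicate 2. The same separation was found for 0.0888% of the 22519 probe sets above the filter, and the opposite one for 0.226%.

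**Figure D1:**
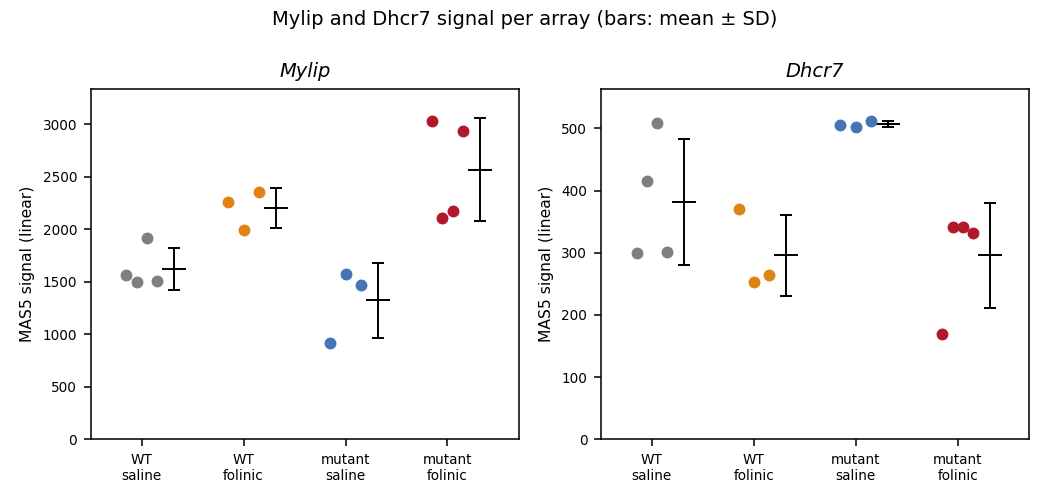
MAS5 signal on a linear axis of Mylip (left) and Dhcr7 (right) on each of the 14 arrays, by genotype and injection, with the mean and SD of each group as the bar at its right. For Mylip all folinic acid arrays, from 1989 to 3034, lie above all saline arrays, from 918 to 1915, and for Dhcr7 the 3 mutant saline arrays, from 502 to 513, lie above all 4 mutant folinic acid arrays, from 169 to 341.

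The order of the group means of Mylip was mutant with saline (1321 ± 353, SD, n = 3), wild type with saline (1620 ± 199, SD, n = 4), wild type with folinic acid (2201 ± 190.1, SD, n = 3) and mutant with folinic acid (2564 ± 491, SD, n = 4). The 2 saline groups overlapped, and so did the 2 folinic acid groups. On the log2 scale the difference between folinic acid and saline was 0.98 ± 0.20 (SE) in mutants, a 1.97-fold higher level, and 0.45 ± 0.20 in wild type, 1.36-fold higher. Averaged over genotypes it was 0.71 ± 0.14. The difference between the responses of the 2 genotypes was 0.53 ± 0.28, and the genotype differences were -0.33 ± 0.20 under saline and 0.20 ± 0.20 under folinic acid.

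None of these values passed the adjusted threshold in limma over all 22519 probe sets; for Mylip the adjusted p was 0.12 in mutants, 0.0999 averaged over genotypes, 0.905 for the interaction and 0.999 or 1 in the other comparisons. Leaving out mutant folinic acid replicate 2 brought it to 0.0254 in mutants, with a log2 difference of 1.06, and to 0.0443 for the average, with 0.76. The weighting of arrays by quality brought the average to 0.0194. In these settings many probe sets passed, 666 in mutants and 147 for the average without that array, and 245 for the average with the weights. Across the alternatives the adjusted p of Mylip in limma also rose, to at most 0.351 in mutants and 0.354 for the average. With quantile normalization it was 0.278 and 0.275. Over leaving out each array in turn, the mutant difference ranged from 0.73 without mutant saline replicate 1, the lowest array, to 1.12 without mutant saline replicate 2. Without mutant saline replicate 1 the interaction was 0.29 in place of 0.53, and the genotype difference under saline -0.08 in place of -0.33.

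Cell type markers moved beside Mylip in part. The summed signal of 8 stromal markers, all 8 above the filter, was lower on every folinic acid array, at 102200 to 109900 in wild type and 105900 to 114900 in mutants, against 124600 to 140500 and 119400 to 148300 with saline. For folinic acid averaged over genotypes, 0 of the 8 stromal markers were above 0, with a median log2 difference of -0.22. Mylip and the stromal sum had a Pearson r of 0.79 within groups over the 14 arrays, and -0.52 when group means were left in. The r within groups describes variation among arrays of a group and does not bear on the difference between injections. The arrays share scaling and tissue composition. The sum of 6 macrophage markers, all 6 above the filter, was 9132 to 15080 in mutants with saline and 9772 to 42960 in mutants with folinic acid, against 9354 to 19950 and 11390 to 13100 in wild type. The r of Mylip with the macrophage sum was 0.51 over the arrays and 0.50 within groups. The part of stroma and of macrophages in the Mylip values was not tested. Without mutant folinic acid replicate 1, the array with the highest Mylip signal, the mutant difference was 0.89.

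Dhcr7, which encodes the reductase of the last step of cholesterol synthesis, was lower after folinic acid in mutants. Its signal in mutants with saline was 506, 502 and 513, and in mutants with folinic acid 169, 341, 341 and 332. The groups did not overlap, a pattern of 5.69% of all probe sets, and replicate 1 of the folinic acid group stood apart below its 3 fellows. In wild type the values were 300.4, 416, 509 and 301 with saline and 370.1, 252 and 265 with folinic acid, which overlapped.

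The order of the Dhcr7 group means was wild type with folinic acid (296 ± 64.8, SD, n = 3), mutant with folinic acid (296 ± 84.7, SD, n = 4), wild type with saline (382 ± 101, SD, n = 4) and mutant with saline (507 ± 5.41, SD, n = 3). The lower 3 overlapped with their neighbours, and the mutant saline arrays overlapped with wild-type saline replicate 3. The log2 difference with folinic acid was -0.83 ± 0.26 in mutants, where the saline level was 1.78-fold that after folinic acid, and -0.35 ± 0.26 in wild type. Mutants minus wild type gave 0.45 ± 0.26 with saline and -0.03 ± 0.26 with folinic acid, and the interaction was -0.48 ± 0.37. Dhcr7 did not pass in limma, with an adjusted p of 0.234 for folinic acid in mutants. Without mutant folinic acid replicate 1 the mutant difference was -0.58, the interaction -0.23 and the genotype difference with folinic acid 0.22. Without wild-type saline replicate 3 the wild-type difference was -0.20, and without wild-type folinic acid replicate 1 the interaction was -0.31.

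Among the 8 genes Dhcr7 had the highest r with the actin ratio over the 14 arrays, 0.67, and 0.59 within groups, where Hmgcs1 had 0.63. Mylip had -0.39 and -0.13. The actin ratio was 2.11 to 3.01 in mutants with saline and 1.54 to 3.12 in mutants with folinic acid. With that ratio as a covariate the Dhcr7 difference in mutants was -0.64, and that of Mylip 0.95. The r of Dhcr7 with the macrophage sum was -0.65, and with the sum of Pgr, Esr1 and Hoxa11 it was 0.83. Within groups these were -0.73 and 0.65. The macrophage sum in mutants with folinic acid had a median of 15760 and a highest value of 42960, so 1 array can weigh heavily on its r. What part RNA quality and tissue makeup have in the Dhcr7 values beyond these figures was not tested.

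The other 6 enzyme genes had group values that overlapped in every comparison. Among early enzymes, Hmgcs1, which makes the HMG-CoA from which mevalonate is formed, had a signal of 1810 ± 108 (SD, n = 4) in saline-treated wild type and 2107 ± 401 (SD, n = 3) with folinic acid. In mutants it was 1822 ± 282 (SD, n = 3) and 2015 ± 432 (SD, n = 4). Both genotypes were thus at similar levels with saline, and the spread was wider after folinic acid, where single arrays ran from 1620 to 2573. Its log2 signal differed by 0.20 ± 0.18 between folinic acid and saline in wild type and by 0.13 ± 0.18 in mutants.

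The 4 probe sets of Hmgcs1 above the filter gave between -0.07 and 0.20 for folinic acid in wild type and between -0.01 and 0.13 in mutants. They varied together only in part: the r between pairs over the arrays ran from -0.08 to 0.64. The probe set used for the gene was the one apart, with an r of 0.365, -0.08 and 0.09 with the others. Those had 0.50 to 0.64 among themselves. The levels of Hmgcs1, its r with other measures and its part in the enzyme medians and score rest on the probe set used.

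Fdps, whose enzyme makes farnesyl diphosphate, the branch point between sterols and other isoprenoids, had 380.4 ± 88.1 (SD, n = 4) in saline-treated wild type and 386 ± 92.4 (SD, n = 3) with folinic acid. In mutants it had 337 ± 127 (SD, n = 3) with saline, where replicate 3 was at 483 and the others at 260.4 and 267, and 278 ± 61.7 (SD, n = 4) with folinic acid. Its log2 difference between genotypes was -0.47 ± 0.27 under folinic acid, or -0.30 without wild-type folinic acid replicate 3, and -0.21 ± 0.27 under saline. Fdft1, the squalene synthase that commits farnesyl diphosphate to sterols, had 923 ± 260.2 (SD, n = 4) and 979 ± 313 (SD, n = 3) in wild type given saline or folinic acid, and 878 ± 52.01 (SD, n = 3) and 971 ± 60.1 (SD, n = 4) in mutants. Its log2 differences with folinic acid were 0.07 ± 0.22 in wild type and 0.15 ± 0.22 in mutants, and its other probe set above the filter gave 0.01 ± 0.20 and -0.21 ± 0.20.

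**Figure D2:**
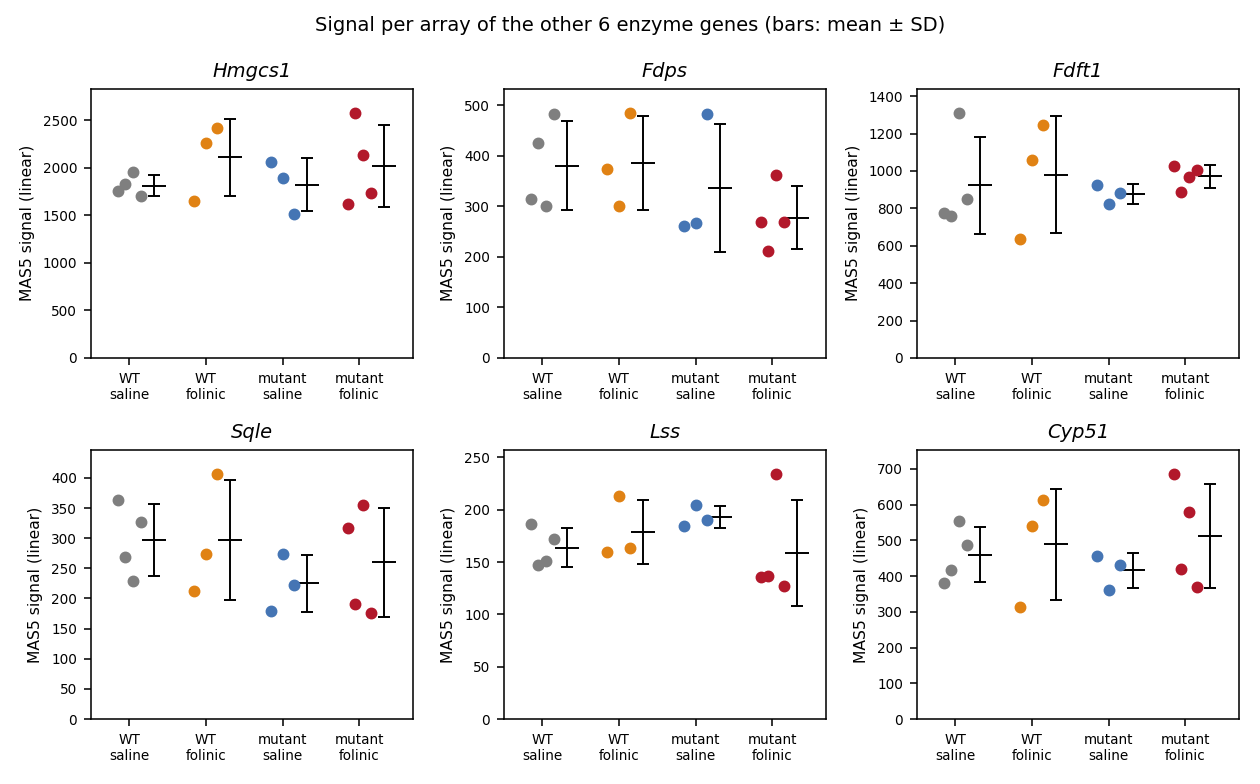
MAS5 signal on a linear axis of the 6 enzyme genes other than Dhcr7 on each of the 14 arrays, by genotype and injection, with the mean and SD of each group as the bar at its right. Groups overlap in each panel, and in wild type with folinic acid replicate 1, the leftmost point, was the lowest of its group for Hmgcs1, Fdft1, Sqle, Lss and Cyp51.

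Of the enzymes that build the sterol ring, Sqle, the squalene epoxidase that is a rate-limiting step, had a signal of 297 ± 59.3 (SD, n = 4) and 297 ± 99.1 (SD, n = 3) in wild type given saline or folinic acid. In mutants it had 225 ± 47.4 (SD, n = 3) and 260.0 ± 89.9 (SD, n = 4). Mutant values were lower in mean under both injections, with log2 differences of -0.40 ± 0.29 and -0.21 ± 0.29, neither past the test. The first was -0.24 without mutant saline replicate 1. Lss, the cyclase that closes the ring to lanosterol, had 164 ± 18.3 (SD, n = 4), 179 ± 30.1 (SD, n = 3), 193 ± 10.2 (SD, n = 3) and 159 ± 50.4 (SD, n = 4) in wild type with saline, wild type with folinic acid, mutants with saline and mutants with folinic acid. In the last group replicate 3 was at 234 and the others at 127 to 137, and the log2 difference with folinic acid in mutants was -0.33 ± 0.24. Without that replicate it was -0.53. A second probe set of Lss, just under the filter at percentile 48, went the other way. Its mean log2 signal was 6.65 with saline and 6.88 with folinic acid in mutants, and 7.09 and 6.87 in wild type. The sign for Lss is therefore not settled. Lss was the dimmest of the 8 genes relative to the filter, at percentile 53.8 of mean log2 signal.

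Cyp51, the lanosterol demethylase, had 460 ± 76.8 (SD, n = 4) and 489 ± 156 (SD, n = 3) in wild type given saline or folinic acid, and 417 ± 49.4 (SD, n = 3) and 513 ± 146 (SD, n = 4) in mutants. The log2 differences with folinic acid were 0.04 ± 0.25 and 0.26 ± 0.25. Its second probe set above the filter, which had an r of 0.75 with the first, gave 0.17 ± 0.27 and -0.06 ± 0.27, so that the sign in mutants differed between the probe sets.

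Across the 7 enzyme genes the median log2 difference with folinic acid was 0.04 in wild type (range -0.35 to 0.20, 5 of 7 above 0) and 0.13 in mutants (range -0.83 to 0.26, 4 of 7 above 0). The medians over all 22519 probe sets were 0.006 and 0.01. For genotype the enzyme median was -0.04 under saline and -0.07 under folinic acid, each with 2 of 7 genes above 0, against -0.02 and -0.01 over all probe sets. The interaction had an enzyme median of -0.07. The wild-type folinic acid median went to -0.15 without wild-type folinic acid replicate 3, which was the highest of its group for Hmgcs1, Fdps, Fdft1, Sqle and Cyp51, and to 0.19 without replicate 1, which was the lowest for 5 of the 7 genes. The mutant folinic acid median was -0.01 without mutant folinic acid replicate 3. Leaving out wild-type folinic acid replicate 1 gave a genotype median of -0.24 under folinic acid and an interaction median of -0.23, and leaving out replicate 3 gave 0.04 for both.

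**Figure D3:**
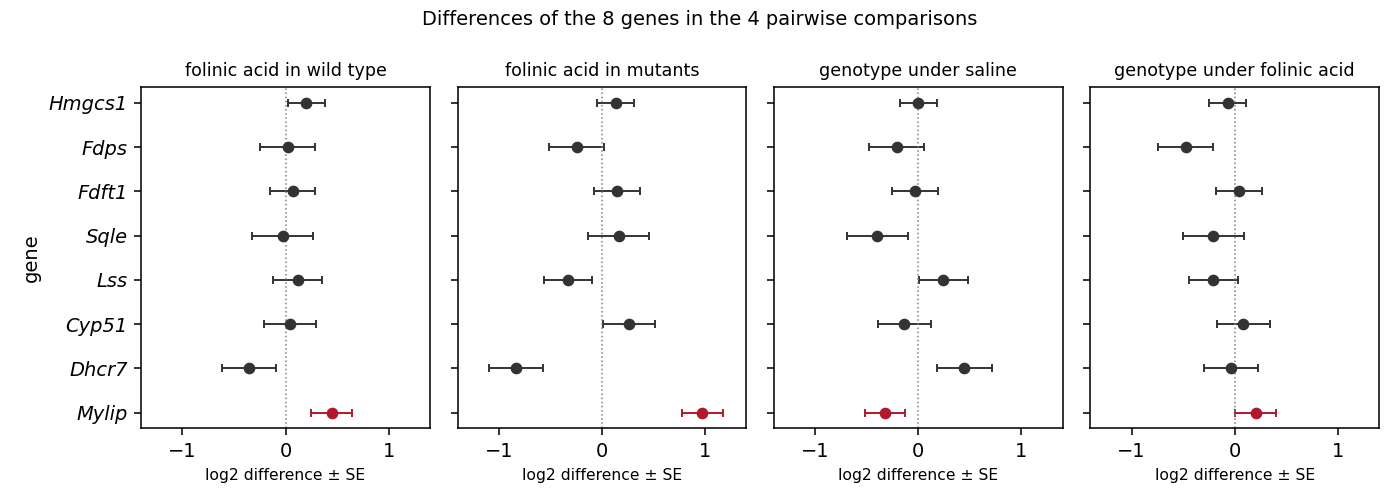
Log2 differences with their standard errors from the fit for the 8 genes (rows) in the 4 pairwise comparisons (panels), folinic acid minus saline or mutant minus wild type. Mylip, in red, is at 0.98 after folinic acid in mutants and 0.45 in wild type, Dhcr7 is at -0.83 and -0.35, and the other genes lie between -0.47 and 0.26 in all panels.

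By the limma test 0 of the 13 probe sets of the 8 genes passed in any of the 7 comparisons. The background was 0% of all probe sets for folinic acid in either genotype and for the interaction, and 0.00444%, that is 1 probe set, in each of the other 4. At an unadjusted p under 0.05 the count was 2 of 13 for folinic acid in mutants, Mylip and Dhcr7, where 12.8% of all probe sets reached it, and 1 of 13 in wild type, Mylip, where 2.71% did. It was 2 of 13 for folinic acid averaged over genotypes (background 9.21%) and 0 of 13 for the interaction (4.9%), the genotype average (2%), and genotype with saline (3.11%) or folinic acid (3.81%). Groups without overlap were found for 1 probe set higher (background 4.65%) and 1 lower (5.69%) after folinic acid in mutants, and for 1 higher (2.4%) and 0 lower (2.56%) in wild type. For genotype there were 0, against 2.06% higher and 2.36% lower under saline and 1.89% and 3.05% under folinic acid.

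The enzyme genes did not vary as 1 unit from array to array. Over the 14 arrays the 21 pairs among the 7 enzyme genes had a median r of 0.11, with 14 pairs above 0, and within groups a median of 0.17, with 13 above 0. Pairs among 1127 genes taken at even steps from those above the filter had medians of 0.001 and 0.002. The closest pair was Fdft1 and Cyp51, at 0.76 over arrays and 0.75 within groups, and Sqle and Cyp51 stood at 0.50 and 0.53. Dhcr7 varied against some of the others, at -0.51 with Sqle and -0.50 with Cyp51. Mylip had a median r of 0.03 with the 7 enzymes, and -0.64 with Dhcr7, which became -0.11 within groups.

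A score, the mean of the 7 enzyme genes after each was centred and scaled over the arrays, ran from -0.73 in mutant folinic acid replicate 4 to 0.89 in wild-type folinic acid replicate 3. In both folinic acid groups it spread more widely, from -0.72 to 0.89 and from -0.73 to 0.73, than in wild type with saline, from -0.18 to 0.35, and mutants with saline, from -0.03 to 0.09. Its r with the log2 actin ratio was 0.52 over arrays and 0.61 within groups, and with the adipocyte marker sum 0.34 and 0.30. With the sum of 4 endothelial markers, all 4 above the filter, it was -0.45 and -0.49, led by Hmgcs1 (-0.83 and -0.86) and Fdft1 (-0.73 and -0.73), while Fdps had 0.47 and 0.50. That sum was 2107 to 3045 in wild type with saline, 2264 to 3363 in wild type with folinic acid, 2410.0 to 3146 in mutants with saline and 2176 to 2815 in mutants with folinic acid, and its part in the enzyme values was not tested.

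The genes whose log2 signal was most like that score over the 14 arrays were Slc29a4, a monoamine transporter (r = 0.82), Ik (0.79), the spliceosome gene Snrpa1 (0.78), the glycolytic gene Pgk1 (0.76), the microRNA-processing gene Drosha (0.76), Nckipsd (0.76), D8Ertd738e (0.75) and the carboxylesterase gene Ces1d (0.75). Most opposite were Zfp868 (-0.86), Armc8 (-0.84), the histone demethylase gene Phf2 (-0.84), the transcription factor Klf4 (-0.83), Glrx3 (-0.83), the adenylate kinase gene Ak3 (-0.81), Strn4 (-0.78) and the mineralocorticoid receptor Nr3c2 (-0.78). None of the 16 was on a list of lipid genes used here. For Mylip, a search added after its values had been seen gave Slc45a3 (0.85), Lsm11 (0.85), Atxn7 (0.84), the transcription factor Klf6 (0.84) and Srsf5 (0.83) as most alike, and Cnot2 (-0.94), Mrpl57 (-0.91), Nckap1 (-0.89), Sumf2 (-0.88) and Psmc4 (-0.87) as most opposite. These values include the difference between injections. Within groups Lsm11 stood at 0.84 and Cnot2 at -0.84, but Slc45a3 at 0.62, Atxn7 at 0.59, Klf6 at 0.56, Srsf5 at 0.54, Psmc4 at -0.73, Nckap1 at -0.71, Mrpl57 at -0.69 and Sumf2 at -0.55. These are the extremes of 11269 genes over 14 arrays that share scaling and tissue makeup.

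Other genes of the pathway were followed through 6 lists with 79 genes, of which 62 were above the filter and 12 were not analysed here. In limma 0 of the 62 passed in any of the 7 comparisons. At an unadjusted p under 0.05 there were 7 with folinic acid in mutants, where 12.8% of all probe sets reached it, and 2 in wild type (2.71%). There were 7 for the interaction (4.9%), 3 for genotype with folinic acid given (3.81%) and 0 with saline (3.11%), 4 for folinic acid averaged over genotypes (9.21%) and 0 for the genotype average (2%).

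Of 15 other enzymes of the mevalonate and sterol pathway, 10 were above the filter. Their median log2 difference with folinic acid was 0.06 in wild type, with 8 of 10 above 0, and -0.06 in mutants, with 3 of 10 above 0. The member with the smallest p in mutants was Pmvk, the phosphomevalonate kinase, at -0.83 ± 0.29 (adjusted p = 0.271, limma). Its signal was 436.5 to 546 in mutants with saline and 194 to 346 with folinic acid, without overlap, a pattern of 5.69% of probe sets. In wild type it was 250.3 to 641 with saline and 328.5 to 555 with folinic acid. The methyl sterol oxidase gene Msmo1 was at -0.38 ± 0.25 and the sterol isomerase gene Ebp at -0.17 ± 0.19 in mutants. In wild type the isomerase gene Idi1 had 0.36 ± 0.26 and the lamin B receptor gene Lbr, which is also a sterol reductase, 0.20 ± 0.16. For genotype under folinic acid the median was -0.19, with 2 of 10 above 0, led by Pmvk (-0.51 ± 0.29) and Nsdhl (-0.41 ± 0.26). For genotype under saline it was 0.03, with Mvd at -0.34 ± 0.28 and Pmvk at 0.34 ± 0.29.

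Of 14 genes that sense sterols or control SREBP, 12 were above the filter, and their medians lay between 0.03 and 0.10 in the 4 pairwise comparisons. Srebf2, which encodes SREBP-2 itself, was at -0.10 ± 0.22 in wild type given folinic acid and -0.05 ± 0.22 in such mutants. Insig1, which holds SREBP back in the endoplasmic reticulum and is itself an SREBP target, was at -0.05 ± 0.21 in both. Its relative Insig2 was at 0.31 ± 0.17 in mutants, with 0.38 and 0.21 in its other 2 probe sets, and Srebf1 at 0.27 ± 0.15. In wild type Erlin2, which takes part in sterol-driven degradation in the endoplasmic reticulum, had 0.30 ± 0.14 and Mbtps2, the protease that frees SREBP, 0.44 ± 0.23. Both were higher on all 3 folinic acid than on all 4 saline arrays, a pattern of 2.4% of probe sets. For genotype, Erlin2 was at 0.29 ± 0.14 under saline, again without overlap (2.06% of probe sets), and -0.21 ± 0.14 under folinic acid. Under folinic acid Insig2 was at 0.33 ± 0.17 and the LXR gene Nr1h3 at 0.37 ± 0.26.

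Of 13 genes of uptake and trafficking, 9 were above the filter, with medians of -0.009 and -0.06 after folinic acid in wild type and in the mutants. Stard4, a carrier of cholesterol between membranes, was at 0.42 ± 0.23 in wild type and -0.32 ± 0.23 in mutants, and its interaction of -0.74 ± 0.32 did not pass (adjusted p = 0.905, limma). Its other 2 probe sets had smaller differences of 0.05 and 0.16 in wild type and -0.18 and -0.10 in mutants. Npc2, which hands cholesterol out of the lysosome, was at 0.33 ± 0.16 in mutants and Stard3 at 0.37 ± 0.17, while Npc1 was at -0.37 ± 0.27 in wild type. The mutant groups did not overlap for Npc2, a pattern of 4.65% of probe sets. Vldlr was at -0.29 ± 0.22 in wild type, but its other 4 probe sets gave -0.19, -0.02, 0.12 and 0.22, so its sign is not settled. For genotype under saline, Lipa, the lysosomal lipase, was at 0.33 ± 0.22, without overlap (2.06% of probe sets), and Osbp at 0.22 ± 0.15.

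The list closest to Mylip by its known control, LXR targets and export genes, had 8 of 12 genes above the filter. These were Abca1, Abcg1, Apoe, Lpcat3, Nceh1, Cyp27a1, Cyp7b1 and Ch25h, not all of them exporters or established LXR targets. Their median with folinic acid was 0.19 in mutants, with 7 of 8 above 0, and 0.04 in wild type, with 6 of 8 above 0. Mutants minus wild type gave a median of -0.16 with saline, with 2 of 8 above 0. With folinic acid it was 0.10, with 5 of 8 above 0. Abcg1, an exporter of cholesterol to HDL, was at 0.63 ± 0.19 in mutants (1.55-fold; adjusted p = 0.212, limma) and 0.04 ± 0.19 in wild type. Its signal was 688 to 872 in mutants with saline and 870.0 to 1542 with folinic acid, so that the ranges overlapped narrowly, against 708 to 1065 and 902 to 939 in wild type. Abca1, the exporter to lipid-poor apolipoprotein, was at 0.56 ± 0.26 in mutants, with 0.84 ± 0.35 in its other probe set, and -0.07 ± 0.26 in wild type. Under saline the mutants had the lower mean signal for both genes, with overlapping ranges. It was 6453 against 8370 in wild type for Abca1, and 771 against 902 for Abcg1. The part of these saline levels in the mutant differences was not tested. Mylip did not overlap in either genotype, a pattern of 4.65% of probe sets in mutants and 2.4% in wild type. Its difference too was larger in mutants, 0.98 ± 0.20 against 0.45 ± 0.20, and whether it differed from Abcg1 and Abca1 was not tested. Cyp7b1 was at 0.26 ± 0.22 in mutants, with -0.04 in its other probe set. Apoe was at -0.34 ± 0.37, Lpcat3 at 0.16 ± 0.21 and the oxysterol-forming Ch25h at 0.37 ± 0.52 in wild type. Abca1, Abcg1 and Apoe are also abundant in macrophages, whose summed markers are given above for each group.

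**Figure D4:**
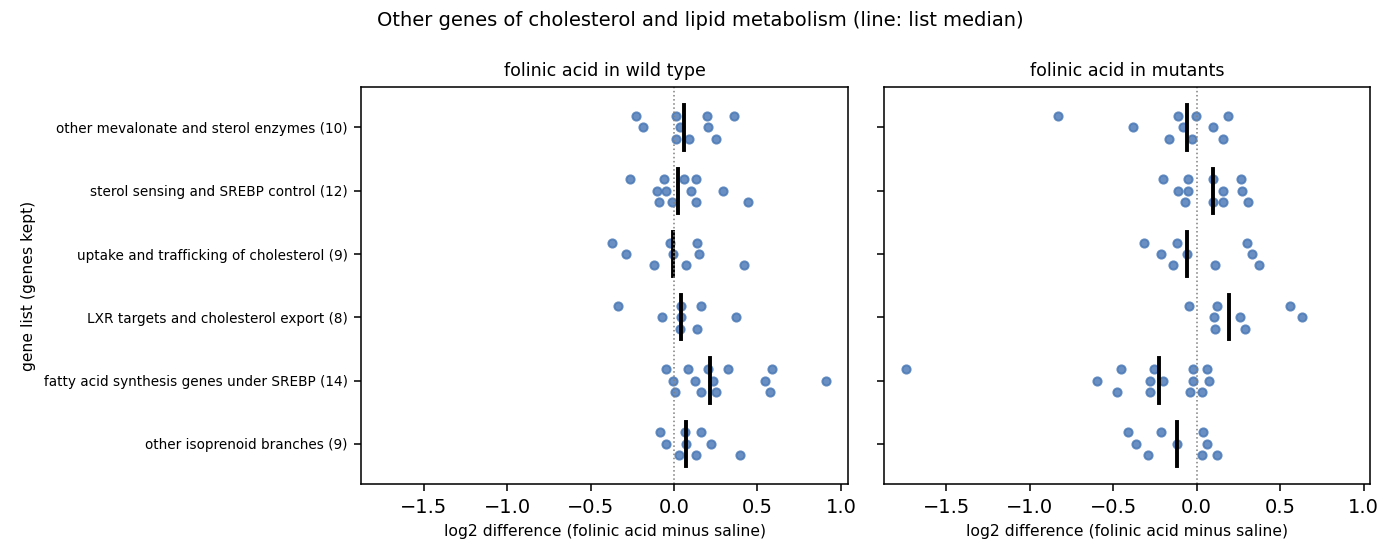
Log2 differences, folinic acid minus saline, of the genes above the filter on 6 lists of cholesterol and lipid genes in wild type (left) and mutants (right), each point 1 gene and each black line the list's median. The fatty acid synthesis list has a median of 0.22 in wild type and -0.23 in mutants, and the list of LXR targets and export genes 0.04 and 0.19.

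The fatty acid synthesis genes under SREBP, 14 of 14 above the filter, had medians of opposite sign in the 2 genotypes. With folinic acid the median was 0.22 in wild type, with 12 of 14 above 0, and -0.23 in mutants, with 3 of 14 above 0. In wild type Fasn, the fatty acid synthase gene, was at 0.55 ± 0.23, Acss2 at 0.57 ± 0.29, with 0.25 in its other probe set, and Me1 at 0.59 ± 0.40, with 0.06 in its other probe set. In mutants Thrsp, a regulator of lipogenesis, was at -1.74 ± 0.53, with -1.75 in its other probe set. Elovl5 was at -0.45 ± 0.18, without overlap (5.69% of probe sets), and Acaca, which makes malonyl-CoA, at -0.60 ± 0.26. For the interaction Acaca was at -0.92 ± 0.36, Fasn at -0.83 ± 0.33 and Thrsp at -1.82 ± 0.75, each with an adjusted p of 0.905 in limma. For genotype under folinic acid the median was -0.35, with Fasn at -0.62 ± 0.23, Thrsp at -1.23 ± 0.53 and Acly at -0.39 ± 0.17, and under saline it was 0.17, led by Acaca (0.49 ± 0.26).

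Adipocyte markers, 3 of 7 above the filter, moved beside these genes in log2 difference but not in the median of their sum. The median log2 difference of the 3 with folinic acid was 1.23 in wild type and -0.40 in mutants. The sum was over 5 markers, with Cidec and Lep from below the filter. It ran from 279 to 14600 (median 7801) in wild type with saline and from 3796 to 27240 (median 7886) with folinic acid. In mutants it ran from 1888 to 18480 (median 3648) with saline and from 1925 to 7931 (median 4505) with folinic acid. The part of adipocytes in the fatty acid genes was not tested.

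The last list, other isoprenoid branches such as those to dolichol, ubiquinone and prenylated proteins, had 9 of 11 genes above the filter, with medians of 0.07 and -0.12 after folinic acid in wild type and in the mutants. Pdss2, which builds the ubiquinone side chain, was at 0.40 ± 0.21 in wild type, without overlap (2.4% of probe sets), and -0.36 ± 0.21 in mutants. Its interaction was -0.76 ± 0.29 (adjusted p = 0.905, limma). Pggt1b had 0.22 ± 0.13 in wild type, also without overlap, but its other 2 probe sets gave -0.51 and 0.34. Dhdds was at -0.41 ± 0.21 in mutants and 0.45 ± 0.19 in its other probe set, so neither gene has a settled sign. For genotype under saline Pdss2 was at 0.40 ± 0.21 and Icmt at 0.26 ± 0.16, and under folinic acid Pdss2 was at -0.36 ± 0.21. Further probe sets of the genes with the smallest p in each list and pairwise comparison gave 39 values, some probe sets entering under several comparisons, and 32 of these had the sign of the one reported.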

How the data were processed

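Uterine RNA of 14 samples was hybridised to 1 array each. The deposited values are linear intensity signals made by the authors with MAS5, per the submitters' processing notes, without a version; the mean after trimming 2% at each end was 500.002 to 500.003 on every array. Signals below 1 were raised to 1 (0.504% of values) and put on the log2 scale without further normalization. Of 45101 probe sets 64 controls were left out, and those at or above the median mean log2 signal were kept (22519). Gene names come from the platform annotation, in which 34945 of the non-control probe sets have 1 symbol, 932 several and 9160 none; 34741 were matched to the reference by gene identifier.

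Differences were fitted with limma 3.58.1 in R 4.3.3 with 4 group means over all arrays (10 residual and 5.04 prior degrees of freedom, variance trend), two-sided, with Benjamini-Hochberg adjustment over all probe sets kept and a threshold of 0.05. The 7 comparisons share groups, so values of comparisons with a common group are not independent of each other. The fit was also run on simulated data with independent noise for each probe set. Such noise lacks the scaling and tissue makeup that these arrays share, so that run does not check their effect. The genes and lists were chosen with earlier results of these data known. Genes named beyond the 8 were up to 3 per list with the smallest p in each comparison, a few fixed genes, among them Srebf2, Insig1 and Abca1, and the 8 most like and most opposite to the enzyme score. Promoter motifs were exact matches. Alternatives were quantile normalization, an offset of 16, other filters, 1 probe set per gene, other variance models, array weights, the compared groups alone, a replicate block, averaging arrays whose titles share a code, an RNA quality covariate and leaving out each array. Replicate numbers were not taken as pairs.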

Additional observations from a re-analysis of the deposited data

Results flagged for a closer look

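In groups of 4 arrays, 26 sets of values of the 13 probe sets were examined for 1 array far from its fellows, of which chance marks about 5%. There were 4. Dhcr7 in mutants with folinic acid had replicate 1 at 169, and its gap to the next array was 0.961 of the group's range. This and the gaps below were taken on log2 signals, while the signals printed are linear. Lss in the same group had replicate 3 at 234 (0.879), and a probe set of Hmgcs1, not the one used for that gene above, had replicate 3 at 2085 (0.853). The second probe set of Fdft1 in wild type with saline had replicate 3 at 877 (0.922), the array with the highest actin 3-prime to 5-prime ratio, 3.64.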

How the results depend on the processing

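The 8 genes gave 1418 log2 differences under the alternatives, all within the spread between arrays (1 pooled SD) of the values reported. Of these, 3 passed the threshold, all for Mylip as given above. Other filters, 1 probe set per gene, other variance models and the compared groups alone cannot change a gene's log2 difference. Leaving out an array outside a pairwise comparison cannot change it either. The counts within the spread, here and for the enzyme medians below, were thus partly fixed beforehand and say little about robustness. Of 179 enzyme medians under alternatives 178 stayed within the spread of 0.185; without wild-type folinic acid replicate 3 that for folinic acid in wild type was -0.15, and leaving out each array gave -0.15 to 0.19. Counts of probe sets past the threshold stayed within 1.5 times in 154 of 179 cases. For folinic acid averaged over genotypes, where 1 passed, the count was 245 with array weights, 2 with the actin covariate, 0 with 1 probe set per gene or shared title codes averaged, and 0 to 147 leaving out each array (147 without mutant folinic acid replicate 2, 118 without wild-type folinic acid replicate 3). For folinic acid in mutants, where 0 passed, it was 103 with array weights, 2 without a filter, and 0 to 666 leaving out each array (666 without mutant folinic acid replicate 2). For genotype under saline it was 2 with the offset, 3 without a filter and 2 on the groups compared only; under folinic acid 2 with the offset and 2 without a filter; averaged 2 and 3; and 1 to 2 leaving out each array in each of these genotype comparisons (2 without wild-type saline replicate 3). The cause of these shifts was not tested.

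With the replicate number as a block the counts were as in the fit without it, 0 or 1, and Mylip in mutants was at 0.96 (adjusted p = 0.25, limma). The numbers were not taken to pair the arrays: same-numbered arrays had correlated deviations above 0.1 in 6 of 19 pairs, from -0.34 to 0.35. The number of arrays per group limits the precision.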
